A study of Mus musculus with 31 samples.

Results

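The livers of 14 mouse pups were compared, 8 from pups given thyroxine (T4) and 6 from pups given triiodothyronine (T3), out of 31 liver libraries in the series. Members were the libraries whose source name gives T4 or T3 alone, matched to the count table by animal number. All 14 pups were C57Bl/6J, carried the genotype Dio1KO/Dio2KO/Pax8KO and were 14 days old. They therefore lacked type 1 deiodinase, type 2 deiodinase and Pax8, the transcription factor on which the hormone-producing follicular cells of the thyroid depend. Hormone was given by injection on alternate days, the first on postnatal day 2. The hormone doses are not given in the sources used here, so the comparison is between 2 treatments as they were given and not between matched doses. Levels in the other 17 livers are given as background, with no test of their own. Their libraries also entered the fit, so they help set its standard errors and p-values. They are the same genotype with vehicle (5 livers) or with both hormones (T3+T4, 7 livers). The other 5 are vehicle-treated livers of Dio1KO/Dio2KO/Pax8Het pups (control), which share the loss of both deiodinases but keep an intact Pax8 allele. Nothing in the labels says which pups were littermates, and p-values measure the spread between these animals.

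T4 is the main product of the thyroid and T3 is the ligand that the nuclear thyroid hormone receptors bind with higher affinity. T3 carries 1 iodine atom fewer than T4, on the outer ring. The type 1 and type 2 deiodinases remove that iodine, and liver is rich in the type 1 enzyme. In liver the receptors, mainly the product of Thrb, control genes of lipid, cholesterol, bile acid and glucose metabolism, and Dio1 is itself a classic target. A difference between T4 and T3 livers in these pups is thus measured where neither enzyme can convert the injected T4.

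Library totals ran from 4383769 to 6116826 counts (median 5298959) with T4 and from 5237993 to 6580814 (median 6145941.5) with T3. The hepatocyte markers averaged 477 to 593 CPM (counts scaled to an equal library size) in the T4 livers and 448 to 557 CPM in the T3 livers. Y-linked genes placed 6 of 8 T4 livers but 1 of 6 T3 livers as male, so sex is unequal between the hormones; the labelled sex of T4 animal 54 and T3 animal 68 differed from these genes. Skeletal muscle markers averaged 5 CPM or more in T4 animals 54, 69 and 71 and in T3 animals 60 and 64, and up to 47.4 CPM. All 6 T3 animals have numbers from 54 to 85, against 5 of 8 T4 animals. Pax8 had 4 to 28 deposited counts in the T4 livers and 4 to 21 in the T3 livers, and Dio2 had 6 to 47 and 12 to 28. Reads on Dio1 are treated below as its transcript, since the removed part of the gene is not given in the sources used here.

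Of 17057 genes tested, 94 differed between T4 and T3 livers, which is 0.551% of the genes (edgeR quasi-likelihood test over all 31 libraries, Benjamini-Hochberg adjusted p under 0.05). The level was higher with T3 for 67 genes (0.393%) and higher with T4 for 27 (0.158%). At an unadjusted p under 0.05 there were 2422 genes, with 7.31% of those tested higher with T3 and 6.89% higher with T4. The T3-higher genes differed by a median of 0.81 on the log2 scale (range 0.25 to 5.18), and 31 of them by at least 2-fold. The T4-higher genes differed by a median of 0.38 (range 0.21 to 2.22), and 5 of them by at least 2-fold. Over all genes tested the median size of the difference was 0.11. In 34 genes (0.199%) no T4 library overlapped any T3 library, and 10 of the T3-higher and 10 of the T4-higher genes were among them. The count was 27 without T3 animal 68, 41 without T3 animal 61, 42 without T4 animal 69, 41 without T4 animal 70 and 342 without T3 animal 62, and 21 genes were called whichever 1 library was left out. A fit of the 14 libraries alone called 8 genes.

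**Figure D1:**
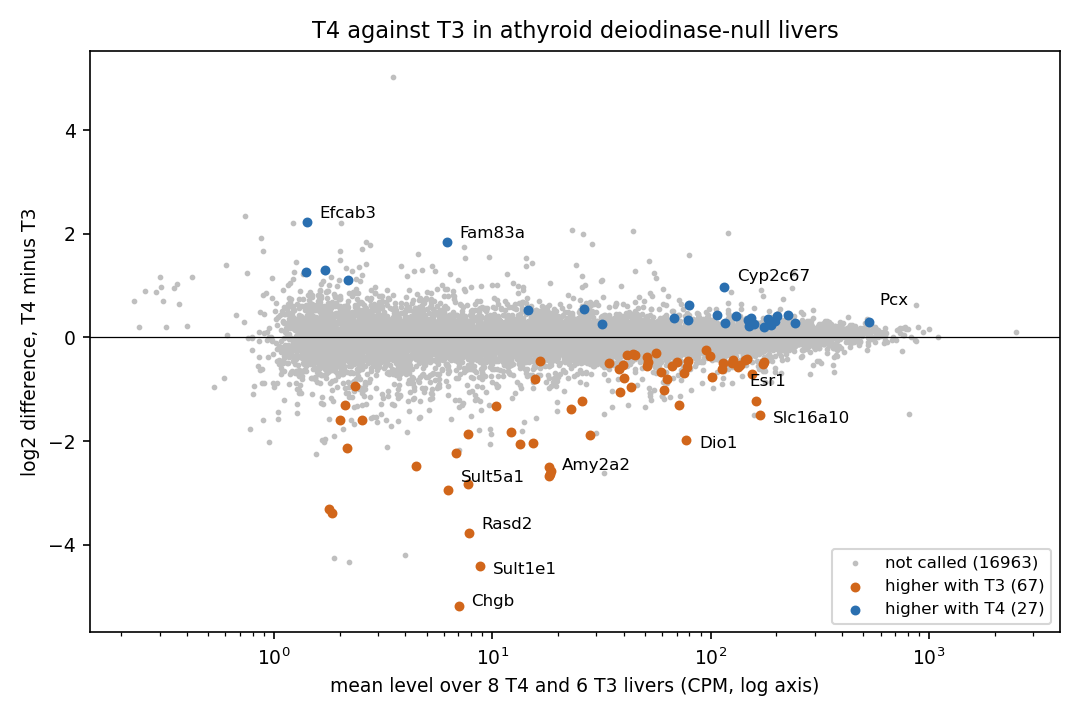
Log2 difference of T4 minus T3 (vertical axis) against the mean level over the 14 livers in CPM (log axis) for the 17057 genes tested, 1 point per gene. The 67 genes higher with T3 reach -5.18, while the 27 genes higher with T4 reach 2.22 and lie mostly close to 0.

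Dio1 (ENSMUSG00000034785, chr4:107291465-107307169 in mm10) had the smallest adjusted p of all genes. Its level in the T4 livers had a lowest value of 18.8 CPM, a median of 28.4 and a highest of 64.5, and in the T3 livers 60.2, 124 and 203 CPM. The groups overlapped only through T4 animal 54 (64.5 CPM) and T3 animal 62 (60.2 CPM, the one male T3 liver). The difference was -1.97 ± 0.25 (log2, SE, T4 minus T3), which is 3.93-fold higher with T3 (adjusted p = 0.000241). With sex as a covariate it was -1.84 (adjusted p = 0.0178), and it was called with any single T4 or T3 library left out. The difference was -2.41 in female livers alone and -0.72 in male livers alone, where animal 62 is the only T3 liver. Without the libraries whose acinar or muscle markers were raised, Dio1 was not called (-2.06, adjusted p = 0.102). For background, Dio1 averaged 12.7 CPM with vehicle, 169 in control and 187 with T3+T4.

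Among the genes that carry, bind or inactivate the hormones, Slc16a10 also differed. It encodes a plasma membrane transporter of aromatic amino acids that also carries thyroid hormones. The T4 livers had 61.1, 84.3 and 208 CPM (lowest, median, highest) and the T3 livers 153, 160 and 712 CPM. T4 animal 40 (208 CPM) was the one T4 liver inside the T3 range, and T3 animal 61 (712 CPM) stood far above the other T3 livers, which reached 258 CPM. The difference was -1.49 ± 0.30 (adjusted p = 0.0142), and without T3 animal 61 it was -0.90 and no longer called (adjusted p = 0.098). Slc16a10 was not called with sex as a covariate either (adjusted p = 0.0963).

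Dio3, whose product inactivates both hormones by inner-ring deiodination, had 4.72, 8.24 and 18.4 CPM with T4 and 2.17, 4.98 and 8.16 CPM with T3. The groups overlapped, and the difference of 0.90 (95% interval 0.20 to 1.61) did not pass adjustment (adjusted p = 0.228). The receptor gene Thrb differed by 0.06 (95% interval -0.16 to 0.28, adjusted p = 0.862). For Thra the difference was 0.20 (0.08 to 0.33, adjusted p = 0.125); this locus overlaps Nr1d1 on the opposite strand, and whether the counting used strand is not given in the sources used here. In all, 2 of the 29 tested genes of hormone transport, binding, receptors and deiodination were called, both higher with T3, and the list's median difference was 0.00, equal to that of all genes.

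Sulfotransferases gave some of the widest differences. They add sulfate to steroids, drugs and thyroid hormones, and Sult1e1 encodes the estrogen sulfotransferase. Sult5a1 (chr8:123140192-123158315) had 0.459, 1.32 and 3.17 CPM with T4 and 4.36, 11.9 and 21.3 CPM with T3. Every T3 liver was above every T4 liver, and the level was 7.70-fold higher with T3 (log2 -2.94 ± 0.50, adjusted p = 0.00303). Sult1e1 (chr5:87575969-87591594) had 0.524, 0.945 and 1.43 CPM with T4 and 0.746, 3.53 and 96.8 CPM with T3. T3 animal 60 lay inside the T4 range, 4 T3 livers had 2.24 to 8.70 CPM, and T3 animal 61 had 96.8 CPM. The fitted difference of -4.40 ± 0.79 (adjusted p = 0.0069) was -2.02 without T3 animal 61 and then not called (adjusted p = 0.106). Neither gene was called with sex as a covariate (adjusted p = 0.0775 for Sult5a1 and 0.0779 for Sult1e1). The 18 other tested genes of sulfation and glucuronidation were not called, and the median over the 20 was 0.05. In the T3+T4 livers Sult5a1 averaged 19.9 CPM and Sult1e1 1.56 CPM, against 0.692 and 0.796 CPM with vehicle.

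**Figure D2:**
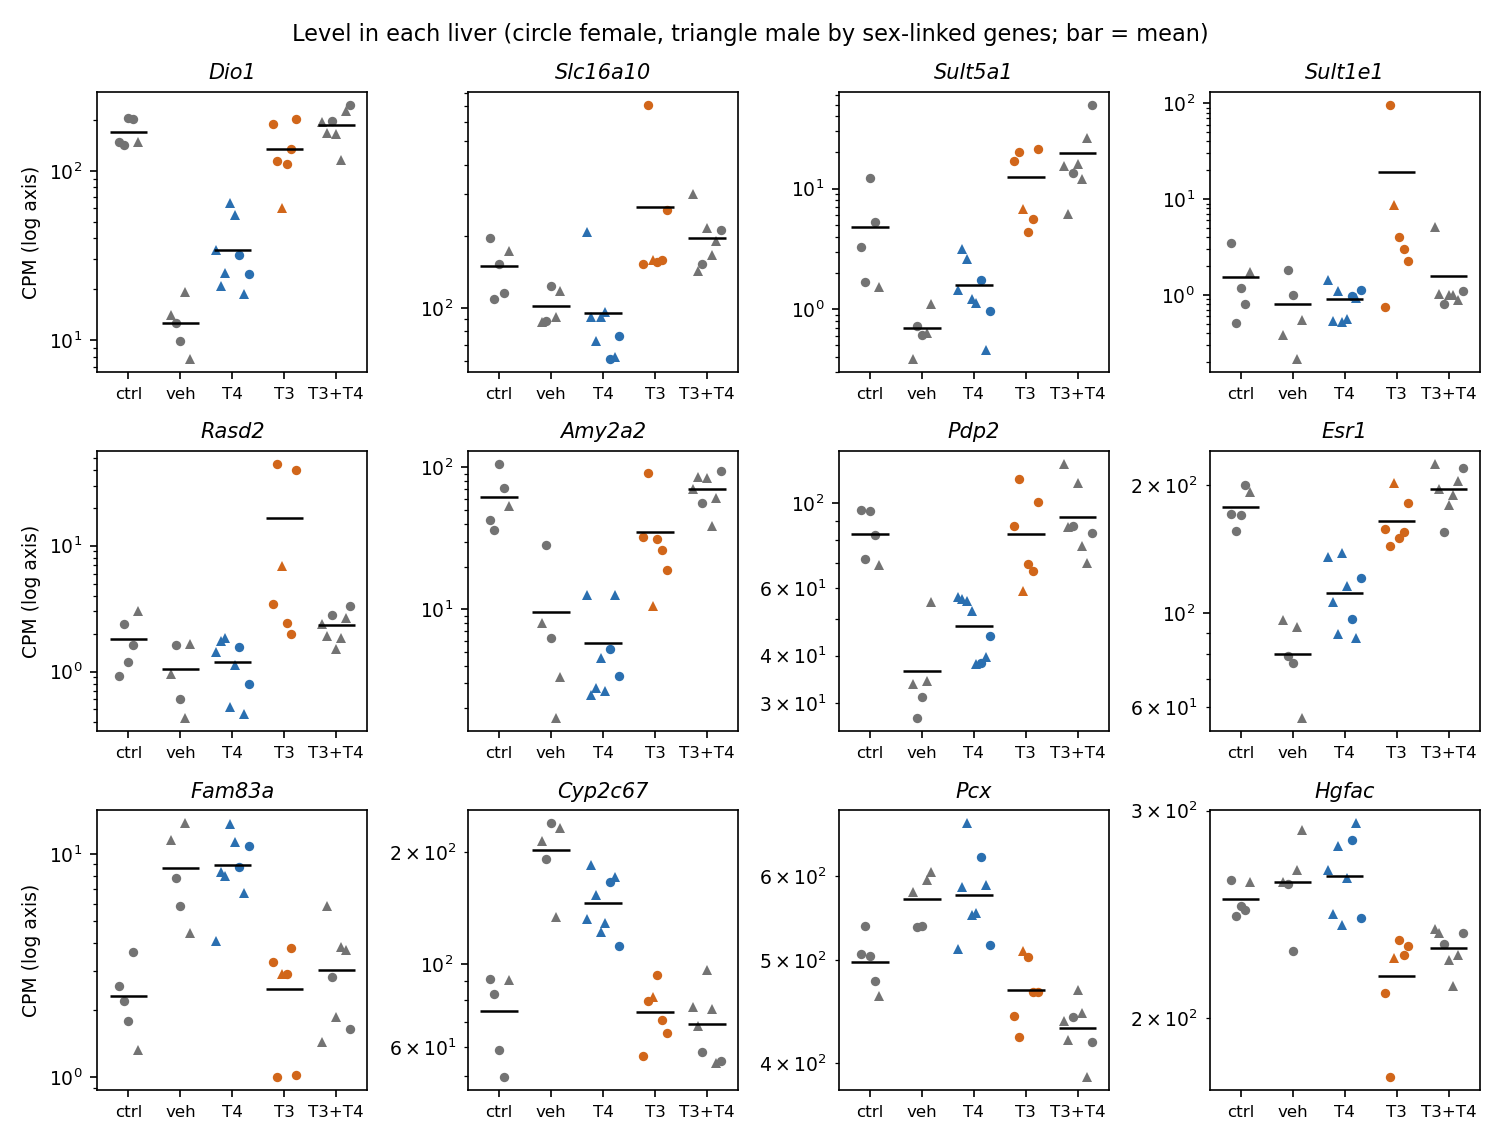
Level in CPM (log axis) of 12 genes in each of the 31 livers, with circles for female and triangles for male livers by their sex-linked genes and a bar at each group mean. The T4 and T3 livers are coloured; Sult5a1, Rasd2, Pdp2, Esr1, Fam83a, Cyp2c67, Pcx and Hgfac do not overlap between them, whereas 1 T3 liver carries most of the mean of Sult1e1.

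Amylases, the starch-digesting enzymes that mouse pancreas secretes, differed as a cluster on chromosome 3. Amy2a1, Amy2a2, Amy2a3, Amy2a4, Amy2a5 and Amy2b were all higher with T3, by 2.48 to 2.83 on the log2 scale (named here after their values were seen). Amy2b is annotated as an unprocessed pseudogene, the others as protein-coding. Amy2a2 (chr3:113345055-113356658) had 2.47, 3.96 and 12.6 CPM with T4 and 10.6, 28.6 and 91.6 CPM with T3. T4 animals 40 and 70 (both 12.6 CPM) lay above T3 animal 62 (10.6 CPM), and all other T4 livers lay below all T3 livers (-2.64 ± 0.48, adjusted p = 0.00842). The 11 pancreatic acinar markers, amylases not among them, averaged 0.738 to 4.07 CPM in the T4 livers and 0.914 to 2.01 CPM in the T3 livers. Of the 9 that passed the filter on low counts 0 were called and 1 was higher with T3, and Pnlip and Try4 did not pass it. In bulk tissue, fewer cells of a type and less RNA per cell cannot be told apart. With sex as a covariate none of the 6 was called, the adjusted p being 0.127 for Amy2a2. The amylase genes are copies of each other, so how reads were divided among them is uncertain and the 6 are not independent. Compared position by position without alignment, the RefSeq promoter windows of Amy2a2, Amy2a3 and Amy2a4 have 0 mismatched positions in 300 bases. That of Amy2a1 differs from theirs at 18 positions and that of Amy2a5 at 210. Without alignment a shifted start also counts as mismatches, and this was not tested for Amy2a5.

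RefSeq promoter windows, 250 bases before to 50 after a start (GRCm38.p6), were found for 68 of the 94 genes and searched on both strands for AGGTCA, the half-site that thyroid hormone and other nuclear receptors bind. At least 1 match was in 13 of 48 T3-higher genes (27.1%) and 6 of 20 T4-higher genes, and 5 of the 13 are amylase copies. Among all 27025 genes with a RefSeq window, tested in these livers or not, 18.1% had a match. The direct repeats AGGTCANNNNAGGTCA and AGGTCANAGGTCA, which contain the half-site, were in 0 windows of the called genes and in 0.0148% and 0.0481% of the 27025 genes. A match is only a run of letters in this window, and no match says nothing of the receptor. The 250 bases before the start are shown for Dio1 (lowest adjusted p, no match), Sult1e1 (widest difference with a match), Amy2a2 (letters shared with Amy2a3 and Amy2a4) and Slc25a45 (beside a second T3-higher gene, Frmd8). Matches are in capitals, AGGTCA or its reverse complement TGACCT, and start at positions -113, -87 and -50, with the start at 0.
Dio1 (chr4:107307169-107307418, minus strand): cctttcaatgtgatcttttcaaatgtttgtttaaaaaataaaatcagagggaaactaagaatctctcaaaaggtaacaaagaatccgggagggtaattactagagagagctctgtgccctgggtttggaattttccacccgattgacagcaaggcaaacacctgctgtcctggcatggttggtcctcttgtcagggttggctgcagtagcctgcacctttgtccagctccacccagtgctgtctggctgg
Sult1e1 (chr5:87591612-87591861, minus strand): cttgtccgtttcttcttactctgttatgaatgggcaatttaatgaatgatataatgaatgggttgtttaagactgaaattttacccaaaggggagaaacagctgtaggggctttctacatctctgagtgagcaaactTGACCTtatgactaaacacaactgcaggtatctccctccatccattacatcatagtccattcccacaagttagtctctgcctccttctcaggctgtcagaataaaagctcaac
Amy2a2 (chr3:113356659-113356908, minus strand): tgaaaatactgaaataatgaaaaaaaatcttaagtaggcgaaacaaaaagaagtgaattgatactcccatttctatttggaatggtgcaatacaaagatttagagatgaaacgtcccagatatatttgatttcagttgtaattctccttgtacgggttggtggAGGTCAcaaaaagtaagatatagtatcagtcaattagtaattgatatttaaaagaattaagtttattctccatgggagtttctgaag
Slc25a45 (chr19:5877572-5877821, plus strand): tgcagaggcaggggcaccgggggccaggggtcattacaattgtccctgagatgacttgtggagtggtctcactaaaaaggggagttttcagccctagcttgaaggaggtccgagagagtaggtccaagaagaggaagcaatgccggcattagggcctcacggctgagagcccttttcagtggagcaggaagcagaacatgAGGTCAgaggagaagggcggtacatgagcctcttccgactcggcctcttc

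Besides Sult5a1, 6 of the T3-higher genes without overlap fall under the naming rule: Rasd2, Rap1gap2, Pdp2, Esr1, Frmd8 and Ssh2. The rule leaves out 9630013D21Rik, Gm8007 and 9030619P08Rik, which have clone or pseudogene names. Rasd2 encodes Rhes, a small GTPase known as a thyroid hormone responsive gene of the striatum. Its level was 0.459, 1.28 and 1.86 CPM with T4 and 1.97, 5.20 and 44.8 CPM with T3, so the groups only just separated. T3 animals 61 (44.8 CPM) and 68 (39.9 CPM) were the high ones (-3.77 ± 0.57, adjusted p = 0.00241). In the T3+T4 livers Rasd2 averaged 2.35 CPM.

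Rap1gap2, a GTPase-activating protein for Rap1, had 10.8, 16.2 and 22.7 CPM with T4 and 23.0, 39.7 and 53.2 CPM with T3 (-1.22 ± 0.20, adjusted p = 0.00263). With sex as a covariate Rap1gap2 was not called (adjusted p = 0.056), and its difference in male livers alone was -0.56. Pdp2, a phosphatase that activates the pyruvate dehydrogenase complex, had 38.1, 48.7 and 57.0 CPM with T4 and 59.0, 78.2 and 116 CPM with T3 (-0.80 ± 0.16, adjusted p = 0.0142). The other catalytic phosphatase of the complex, Pdp1, was also called (-0.96 ± 0.23, adjusted p = 0.0482), though its libraries overlapped; it is named after its value was seen. Neither call was firm: Pdp2 was not called without T3 animal 61 (adjusted p = 0.0644), without T3 animal 68 or with sex as a covariate (0.0775), and Pdp1 was called in 3 of 14 fits that left out 1 library and not with sex as a covariate (0.286). In male livers alone the difference was -0.24 for Pdp2 and 0.07 for Pdp1.

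Esr1, the estrogen receptor alpha gene, had 87.5, 111 and 139 CPM with T4 and 144, 157 and 203 CPM with T3 (-0.57 ± 0.11, adjusted p = 0.0138). The highest T3 liver was the male one, animal 62, and the difference with sex as a covariate was -0.64 (adjusted p = 0.0434). Frmd8, which stabilises the iRhom sheddase complex, differed by -0.60 ± 0.12 (adjusted p = 0.0131) and Ssh2, a cofilin phosphatase, by -0.54 ± 0.11 (adjusted p = 0.0131). Slc25a45, a mitochondrial carrier gene that starts 2534 bases from Frmd8 on the opposite strand, was called as well (-0.78 ± 0.17, adjusted p = 0.0239, named after its value was seen). Without T3 animal 68, Esr1 (adjusted p = 0.0578), Frmd8 (0.0663) and Ssh2 (0.0596) were not called. With sex as a covariate Frmd8 (adjusted p = 0.127), Ssh2 (0.125) and Slc25a45 (0.205) were not called. Slc25a45 was called in 10 of 14 fits that left out 1 library.

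A few T3-higher genes rested on 1 or 2 T3 livers (named after their values were seen). Star, which moves cholesterol into mitochondria for steroid synthesis, was at 122 CPM in T3 animal 60 and at 14.5 CPM or lower in every other T4 and T3 liver. Chgb, a granin of secretory granules, was at 85.9 CPM in that same animal and at 5.85 CPM or lower in the other T4 and T3 livers, although T3+T4 animal 78 had 23.3 CPM, and its fitted -5.18 ± 1.22 was the widest difference of all. Phf11c was at 189 CPM in T3 animal 61 and 42.0 CPM in T3 animal 68, against at most 18.8 CPM in the other T4 and T3 livers. Among the 67 T3-higher genes, T3 animal 61 was the highest T3 liver for 30 and T3 animal 68 for 21, while T3 animal 62 was the lowest for 30.

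**Figure D3:**
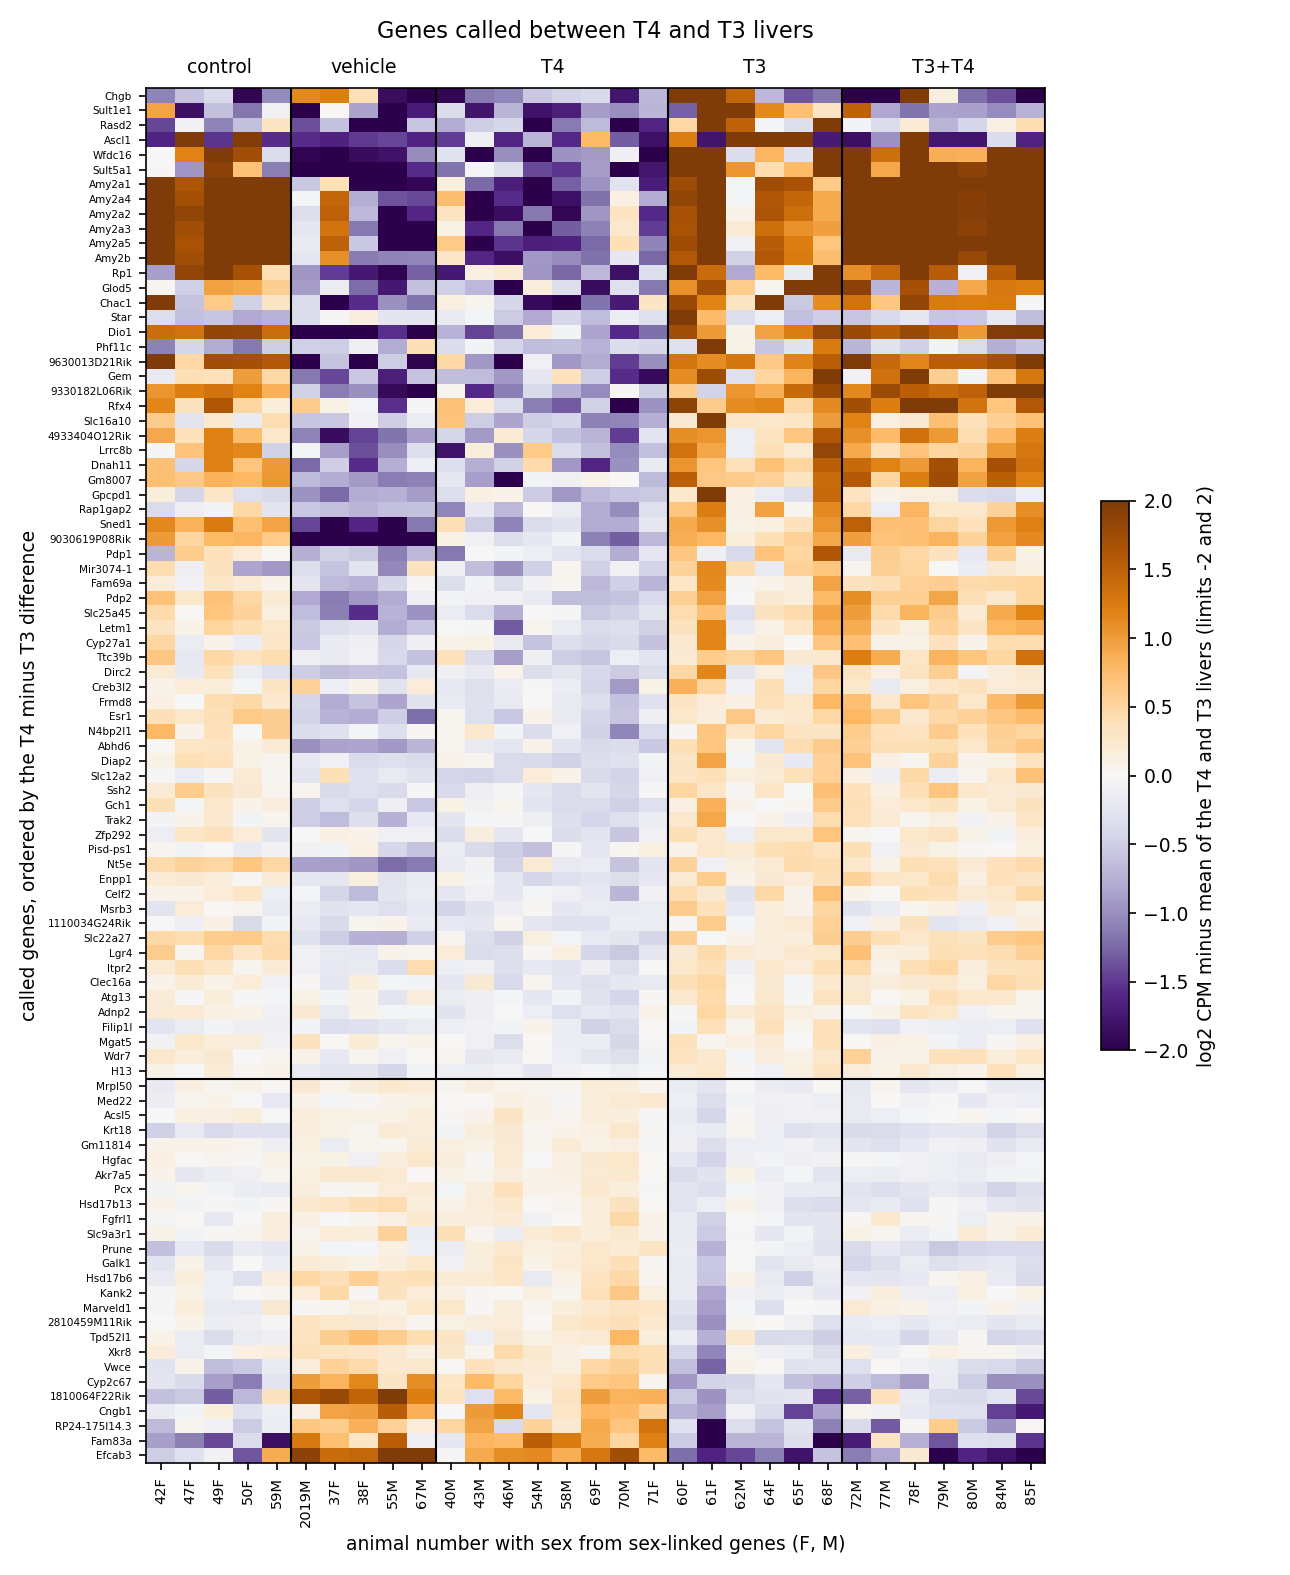
Of the 94 genes called between T4 and T3, 93 (vertical axis, ordered by the difference) in all 31 livers (horizontal axis, animal number and sex from sex-linked genes), coloured by log2 CPM minus the mean over the T4 and T3 livers and limited to -2 and 2. The upper block of 67 genes is higher with T3 and the lower block of 26 is higher with T4, with paler colours because those differences are smaller.

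The genes higher with T4 differed less but were often abundant. Fam83a, a member of a family of scaffold proteins that bind casein kinase, had the widest difference among those averaging at least 5 CPM. It had 4.07, 8.52 and 13.6 CPM with T4 and 1.00, 2.90 and 3.78 CPM with T3, without overlap (1.84 ± 0.34, 3.57-fold, adjusted p = 0.00842). With sex as a covariate Fam83a was not called (adjusted p = 0.0579). Cyp2c67, a cytochrome P450 with close relatives in the same cluster, had 112, 143 and 185 CPM with T4 and 56.8, 75.3 and 93.6 CPM with T3. Every T4 liver was above every T3 liver (0.97 ± 0.16, 1.96-fold, adjusted p = 0.00263), and it stayed called with sex as a covariate (0.88, adjusted p = 0.0434). Vehicle livers averaged 203 CPM of Cyp2c67, and control and T3+T4 livers 74.8 and 69.3 CPM.

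Pcx, pyruvate carboxylase, the enzyme that makes oxaloacetate for gluconeogenesis, had 512, 570 and 673 CPM with T4 and 423, 467 and 510 CPM with T3. The groups touched without overlapping (0.30 ± 0.06, 1.23-fold, adjusted p = 0.012), and with sex as a covariate the adjusted p was 0.104. Hgfac, the serine protease that activates hepatocyte growth factor, had 240, 265 and 293 CPM with T4 and 178, 226 and 233 CPM with T3 (0.28 ± 0.06, adjusted p = 0.0142). Both were called with any single T4 or T3 library left out. Hgfac was not called with sex as a covariate either (adjusted p = 0.127). With library total as a covariate neither was called (adjusted p = 0.0919 for Pcx and 0.142 for Hgfac). The fit of the T4 and T3 libraries alone called neither (0.167 and 0.203).

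Marveld1 (0.43 ± 0.10, adjusted p = 0.0326), the focal adhesion gene Kank2 (0.42 ± 0.10, adjusted p = 0.0466), the Mediator subunit gene Med22 (0.23 ± 0.05, adjusted p = 0.0466) and the mitochondrial ribosomal gene Mrpl50 (0.21 ± 0.05, adjusted p = 0.0495) were also without overlap. For Marveld1, Kank2 and Med22, T3 animal 61 was far below the other T3 livers, at 57.0, 72.4 and 118 CPM. Without that animal none of the 4 was called (adjusted p = 0.0573 for Marveld1, 0.112 for Kank2, 0.151 for Med22 and 0.163 for Mrpl50). Efcab3 (2.22 ± 0.36, adjusted p = 0.00263), with a mean under 5 CPM, and Gm11814 (0.26 ± 0.06, adjusted p = 0.0256) had no overlap either and fall outside the naming rule. Galk1, galactokinase, was higher with T4 by 0.38 ± 0.07 (adjusted p = 0.0123), and the hydroxysteroid dehydrogenase genes Hsd17b6 and Hsd17b13 by 0.42 ± 0.10 (adjusted p = 0.0456) and 0.31 ± 0.06 (adjusted p = 0.0225); these 3 are named after their values were seen. T3 animal 61 was the lowest T3 liver for 20 of the 27 T4-higher genes and T3 animal 62 the highest for 18.

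Of 20 tested genes that thyroid hormone induces, 1 was called, Dio1, and the median difference was -0.15, with 15 of the 20 differences below 0. At an unadjusted p under 0.05, 6 were higher with T3 and 1 with T4, beside 7.31% and 6.89% of all genes. The T3-higher count was 5 with sex and 6 with library total as a covariate. Klf9, a transcription factor gene directly induced by the receptor, had 42.7, 76.2 and 114 CPM with T4 and 89.9, 148 and 251 CPM with T3 (-0.89, 95% interval -1.39 to -0.39, adjusted p = 0.0884). Me1, malic enzyme, which supplies NADPH for fat synthesis, had 27.5, 46.4 and 120 CPM with T4 and 51.8, 115 and 174 CPM with T3 (-1.01, -1.64 to -0.37, adjusted p = 0.134). Their intervals lie below 0, but neither passed adjustment and their libraries overlapped. For background, Klf9 averaged 106 CPM with vehicle, 82.8 with T4 and 154 with T3, so its T4 mean lay below the vehicle mean. Me1 averaged 28.4 CPM with vehicle, 56.8 with T4 and 115 with T3.

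Thrsp, the lipogenic regulator Spot 14, did not show a difference that could be resolved. It had 1.93, 4.81 and 25.5 CPM with T4 and 1.72, 5.33 and 21.6 CPM with T3, and the interval of -1.45 to 1.34 allows more than a 2-fold difference either way. Its mean was 2.87 CPM with vehicle, 34.3 in control and 66.2 with T3+T4. The intervals for Gpd2, mitochondrial glycerol phosphate dehydrogenase (-0.78 to 0.30), and for Hr, the hairless corepressor (-0.88 to 0.50), included 0 and stayed within 2-fold.

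The bile acid list had 1 called gene of 18. Cyp27a1, sterol 27-hydroxylase, had 96.6, 114 and 157 CPM with T4 and 147, 167 and 329 CPM with T3 (-0.71 ± 0.16, adjusted p = 0.0281). The groups overlapped between T4 animals 40 and 43 and T3 animals 62 and 65, the highest library was T3 animal 61, and the gene was not called without it or with sex as a covariate (adjusted p = 0.137). Cyp7a1, the rate-limiting enzyme of bile acid synthesis, differed by -0.85 (95% interval -1.51 to -0.19, adjusted p = 0.227; named after its value was seen). The stress list also had 1 called gene of 15, Chac1, which degrades glutathione: 2.08, 5 and 10.4 CPM with T4 and 5.75, 18.6 and 60.7 CPM with T3 (-2.06 ± 0.48, adjusted p = 0.0456). Its libraries overlapped through T3 animals 62 and 65.

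Gluconeogenesis and glycogen had 1 called gene of 18, Pcx, and a median of 0.17. In fatty acid oxidation and ketogenesis 0 of 28 genes were called. At an unadjusted p under 0.05, 14 of the 28 were higher with T4 and 1 with T3, beside 6.89% and 7.31% of all genes, and the median was 0.15. The 14 became 7 with sex and 5 with library total as a covariate. With library total, the T3-higher genes at an unadjusted p under 0.05 went from 1 to 11 of 28 in oxidative phosphorylation, from 2 to 6 of 24 in the cholesterol list and from 0 to 6 of 16 in the urea cycle list, so these unadjusted counts depend on that covariate. Of the 24 cholesterol genes 0 were called and 2 passed an unadjusted p under 0.05, both higher with T3, while 20 had a negative difference (median -0.17). Lipogenesis had 0 called of 23 (median -0.05); Acacb, the acetyl-CoA carboxylase of mitochondria, and Lpin1, a phosphatidate phosphatase, had the smallest adjusted p there (-1.84 and -1.49, adjusted p = 0.063 and 0.0721; named after their values were seen).

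No gene was called in the lists of the growth hormone axis (14 genes, median -0.06), fetal liver (12, 0.30), cytochrome P450 families (32, 0.08), urea cycle (16, -0.04), oxidative phosphorylation (28, 0.00), cell cycle (24, 0.28), circadian clock (18, -0.04), acute phase (16, 0.11) or immediate early genes (14, -0.15). Cyp2c67, a called P450 gene, is not in the P450 list. All 12 fetal genes tested had a difference of 0 or more; H19 differed by 0.35 (95% interval 0.16 to 0.55, adjusted p = 0.0768). With sex as a covariate Dio1 was the one called gene left in any of the 30 lists, and with library total as a covariate Dio1 and Sult5a1 were. The marker lists of blood, Kupffer, endothelial, stellate, bile duct, muscle and fat cells had 0 called genes too. Only 1 of 8 fat markers was tested. Of 9 muscle markers 6 were tested, all 6 were higher with T3 (median -0.72) and 0 had an interval within 2-fold.

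**Figure D4:**
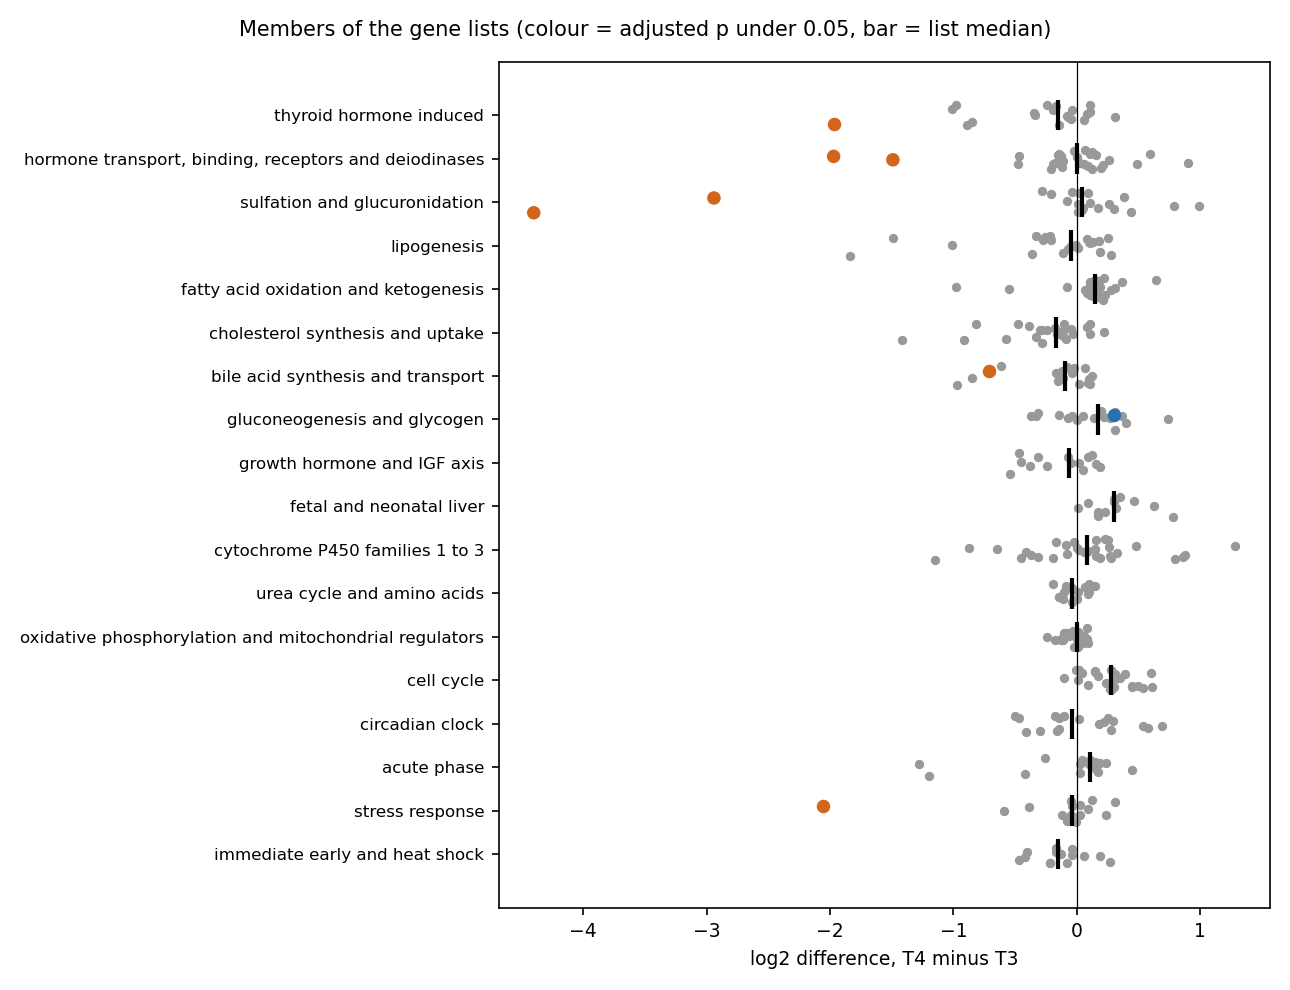
Log2 difference of T4 minus T3 (horizontal axis) for each tested member of the 18 lists of gene functions, with list medians as bars and called genes in colour (blue higher with T4, orange higher with T3). Dio1, which stands in the first 2 lists, Slc16a10, Sult5a1, Sult1e1, Cyp27a1, Chac1 and Pcx are the called members.

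For most genes the data bound the difference. The 95% interval lay within 2-fold in either direction for 15429 genes (90.5%). Of the 13940 genes averaging at least 5 CPM, it lay within 2-fold for 13250 (95.1%) and within 1.5-fold for 11619 (83.4%). All 28 oxidative phosphorylation genes and all 16 urea cycle genes were within 2-fold, such as Tfam, the mitochondrial transcription factor (0.08, -0.01 to 0.17). Other genes with narrow intervals were Slco1b2, a liver organic anion transporter (0.12, 0.02 to 0.23), Hsd3b7 of bile acid synthesis (0.07, -0.04 to 0.17), Dgat2 of triglyceride synthesis (0.10, -0.03 to 0.23) and Atf4 of the stress response (-0.04, -0.15 to 0.06). The hormones are not shown to act alike on these genes; the intervals give the differences that the data allow. They hold for the deposited counts, in which abundant genes take small shares: Alb, the albumin gene, had at most 0.07% and any gene at most 0.3% of a library, and no gene with over 1 kb of exons exceeded 2.07 counts per exonic base in any library. Whether this narrows the differences of abundant genes was not tested.

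Sex is unequal between the groups, and with it as a covariate 7 genes were called, all among the 94: Dio1, Rasd2, Esr1 and 9630013D21Rik higher with T3, and Cyp2c67, Efcab3 and RP24-175I14.3 higher with T4. All 94 kept their direction and an unadjusted p under 0.05 in that fit, with log2 differences at a median of 0.92 and standard errors at 1.11 times those without it. Of all 17057 genes, 1668 had an unadjusted p under 0.05 there. The same libraries chose the 94 genes, so kept directions and unadjusted p, here and in the fits that follow, are not independent evidence. In female livers alone (2 T4, 5 T3) all 94 had the same direction and 3 genes were called, 2 of them among the 94; in male livers alone (6 T4, 1 T3) 87 of 94 had the same direction, differences were a median of 0.423 times as large, and 9 genes were called, 1 of them among the 94. With 1 male T3 liver, T3 animal 62, its sex and its own level cannot be told apart. Without the libraries whose acinar or muscle markers averaged 5 CPM or more, edgeR called 0 genes, with 1298 at an unadjusted p under 0.05. DESeq2 was not run on that subset. It lacks T4 animals 54, 69 and 71 and T3 animals 60 and 64. It also lacks control animals 47 and 49, vehicle animals 2019 and 37, and T3+T4 animals 78, 79, 80 and 85. Those libraries help set the standard errors of the full fit. All T4 livers left in it are male and T3 animal 62 is its one male T3 liver, so sex and hormone are nearly tied there. Of the 93 called genes still tested there, 93 kept their direction and 92 had an unadjusted p under 0.05, with standard errors at a median of 1.35 times those of the full fit. With DESeq2 over all 31 libraries 234 genes were called, all 94 among them.

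The T3 libraries were larger, and the difference over all genes moved with read density. The median T4 minus T3 difference was -0.017 for genes with up to 0.05 counts per exonic base, 0.045 between 0.25 and 0.5, 0.088 between 0.5 and 1, and 0.123 above 1, where 93.5% of 108 genes were higher with T4. With library total as a covariate these medians were 0.034, -0.018, -0.011 and -0.013, and 21 genes were called, 18 of them among the 94. The T4-higher genes had a median of 0.192 counts per base and the T3-higher genes 0.0431, beside 0.0487 for all genes, and 6 of 27 against 0 of 67 lay above 0.5.

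**Figure D5:**
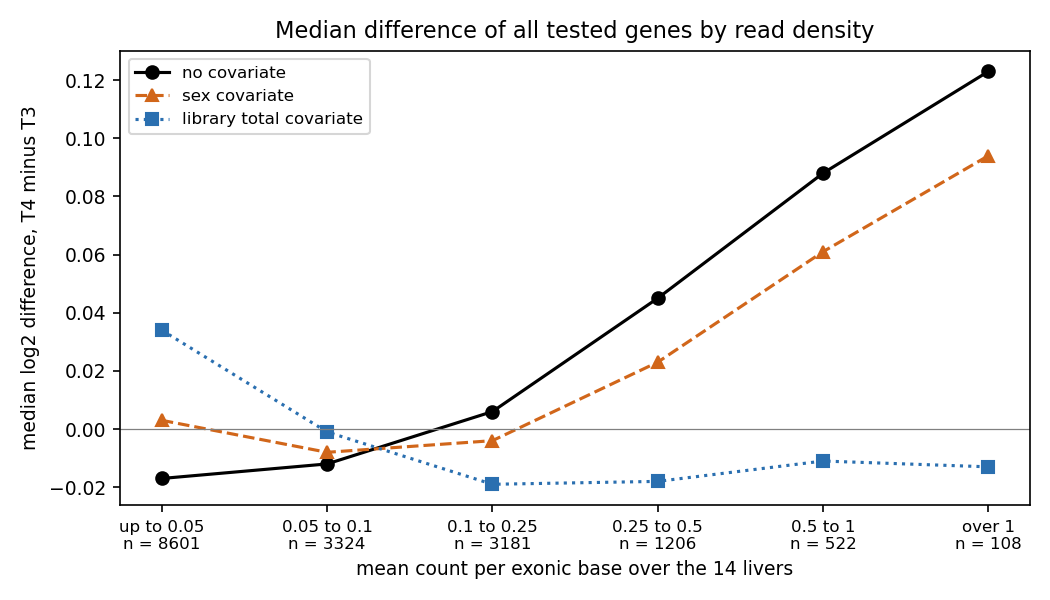
Median log2 difference of T4 minus T3 (vertical axis) over all tested genes in 6 ranges of mean count per exonic base (horizontal axis, with the number of genes), without a covariate and with sex or library total as a covariate. The median rises from -0.017 to 0.123 without a covariate and stays between -0.019 and 0.034 with library total.

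The levels with vehicle give a background for the 94 genes, with no test, because the T4 and T3 values chose the genes. The T4 mean lay on the T3 side of the vehicle mean for 38 of the 67 T3-higher genes and 17 of the 27 T4-higher genes. It was nearer to the vehicle mean than to the T3 mean for 63 and 26 of them. Choosing genes by a wide gap between T4 and T3 by itself favours such counts. The same share over all tested genes was not computed. In the T3+T4 livers the mean was nearer to T3 than to T4 for 57 of 67 and 22 of 27. For 9030619P08Rik, a transcribed pseudogene named after its values were seen, the means were 3.59 CPM with vehicle, a T4 range of 22.5 to 59.5 CPM, a T3 range of 62.5 to 105 CPM and 93.7 CPM in control (-1.02 ± 0.19, adjusted p = 0.00842), so both hormone groups lay well above vehicle and did not overlap.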

How the data were processed

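Liver RNA was sequenced from stranded mRNA libraries, per the labels' protocols. The authors deposited whole-number counts per gene for 43629 genes, with no normalization visible in the values. The lowest value in all 31 columns is 1 and 50.1% of values are 1, so an added 1 is present, and all 37 mitochondrial genes are at 1. The submitters' processing notes name BWA 0.7.10 with bcl2fastq, Trimmomatic and DESeq, and the human build GRCh38, although mm10 stands in the column names. The counting tool, its use of strand and the annotation are not given in the sources used here. Positions and exonic lengths came from GENCODE M21 (mm10), which holds 97.5% of the gene IDs.

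After TMM scaling, filterByExpr kept 17057 genes, and the edgeR 4.0.16 quasi-likelihood test (glmQLFit, glmQLFTest, R 4.3.3) was run with 1 mean for each of the 5 groups over 31 libraries, contrast T4 minus T3, and Benjamini-Hochberg adjustment at 0.05. CPM are TMM-scaled. Alternatives were DESeq2 1.42.0, other scalings and filters, 1 subtracted, sex or library total as covariates, subsets of libraries and each library left out; the fits within 1 sex were added after seeing the data. A library was called male at a Y-linked mean of at least 20 CPM. On simulated data with 17053 genes, 78 of 100 2-fold and 98 of 100 4-fold changes were recovered, with 14 of 16853 unchanged genes called. The simulated libraries had no sex effect, no trend with library total and no outlying animal. These rates therefore need not hold for the real calls. Depth limits low genes: the added 1 understates their differences. Abundant genes take small shares of the deposited counts (at most 0.3% of a library), and how that came about is not given in the sources used here.

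The members and the 30 gene lists were chosen with earlier results of these data known. Genes named were (a) up to 12 per direction with the widest called differences, a mean of at least 5 CPM and no overlap between the 8 T4 and 6 T3 libraries, without clone and pseudogene names; (b) up to 3 called members per list; (c) Dio1, Dio3, Thrsp, Me1, Gpd2, Klf9, Hr, Thrb and Thra; (d) per list of functions, the uncalled member with the narrowest interval. No set test was made, and 2 genes are not reported here.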

Additional observations from a re-analysis of the deposited data

Results flagged for a closer look

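In 92 groups of libraries checked, T4 or T3 for each of 46 named genes, 5 held a library far from the rest by Dixon's test, and chance alone gives about 1 in 20. T3 animal 61 accounts for 4 of them: it was the lowest T3 liver for Marveld1 (57.0 CPM, next 84.0), Kank2 (72.4 CPM, next 111) and Med22 (118 CPM, next 137), and the highest for Slc16a10 (712 CPM, next 258). T4 animal 40 was the highest T4 liver for Slc16a10 (208 CPM, next 96.3).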

How the results depend on the processing

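The count of 94 genes, 27 higher with T4 and 67 higher with T3, stayed within 1.5 times under scaling by library total alone or median-of-ratios factors, a mean of at least 5 CPM and subtraction of 1; without a filter the total was 89 with 9 higher with T4 and 80 with T3. It moved to 234 (80 and 154) with DESeq2, 8 (3 and 5) in the T4 and T3 libraries alone, 43 (9 and 34) in animals 54 to 85, 21 (6 and 15) with library total as a covariate, 7 (3 and 4) with sex as a covariate, 38 (11 and 27) without the animals whose labelled sex differs, 3 (0 and 3) in female livers, 9 (0 and 9) in male livers, and 0 (0 and 0) without raised acinar or muscle libraries, where edgeR gave 1298 genes at an unadjusted p under 0.05. Leaving out 1 library gave 27 to 342 genes, 7 to 157 higher with T4 and 20 to 185 higher with T3. Apart from the smaller numbers of libraries in the subsets, the cause was not tested. Over the 46 named genes and all alternatives, no called difference changed sign, 16 values of uncalled genes fell outside the 95% interval of the gene, 190 values fell short of the threshold that the gene had passed, and 19 passed it anew (in Cyp2d26, Slc2a2, Klf9, H19, Me1 and Fbp1). No paired analysis was possible because the animal numbers in the labels are unique to each animal and no number is shared by a T4 and a T3 pup.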

Other observations

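Called genes that lie within 100 kb of each other on the same chromosome, apart from the amylases, included Frmd8 and Slc25a45 (chromosome 19, both higher with T3), and Gpcpd1, 1110034G24Rik and Chgb (chromosome 2, all higher with T3). Of all tested genes 92.6% have another tested gene within that distance. That share is for any tested neighbour, and the share expected for a called neighbour was not computed. Of the 94 genes, 92 are autosomal, 2 are on the X chromosome (Glod5 and Diap2) and 0 on the Y chromosome.

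Livers placed as male by their Y-linked genes still had 2.34 to 161 CPM of Xist, the RNA that coats the inactive X chromosome, against 1120 to 2000 CPM in female livers, and female livers had a Y-linked mean of 0.473 to 8.97 CPM against 93.6 to 117 CPM in male livers.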
